A study of Mus with 6 samples.

Results

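Trh, Avp, Oxt, Gal, Otp, Baiap3 and Nkx2-1 are 7 genes best known from the hypothalamus, where they encode peptide hormones, a vesicle protein and developmental transcription factors. They were taken by gene name from a deposited table of 54532 genes because earlier results of these data had shown high values in the wild-type libraries WT1 and WT2. They were thus selected on their FPKM levels in these same 6 libraries, and the difference between genotypes is given for these 7 genes as a description without a test. The libraries were made from basolateral amygdala of female mice: 3 libraries labelled CNTNAP4-KO (KO1 to KO3, a knockout of the contactin-associated gene Cntnap4) and 3 labelled wild type (WT1 to WT3). The labels name no treatment, age, strain or allele, and do not say whether each library came from its own animal, so every spread below is a spread between libraries that may be technical. The series title speaks of fear memory and a Lactobacillus species, and the only comparison the analysed samples allow is KO against WT.

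Peptide hormones are cut from longer precursors inside the secretory pathway, stored in dense-core vesicles and released to act on G-protein-coupled receptors. In the hypothalamus, thyrotropin-releasing hormone drives the thyroid axis, vasopressin controls water balance, oxytocin acts in birth and lactation, and both of the last-named peptides also modulate social and fear behaviour in the amygdala. Several of the same peptides and regulators, Otp among them, are made by neurons of the medial amygdala and the stria terminalis as well, so none of the 7 genes marks the hypothalamus alone. In bulk tissue, fewer cells of a type and less RNA per cell cannot be told apart.

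Levels are in FPKM, a read count divided by gene length and library size, and the reads behind each value could be worked back from it. Between 15933029 and 17789798 reads per library were recovered in this way, and 22166 to 23375 genes were above 0. Cntnap4 was at 1.08, 1.19 and 1.28 FPKM in KO1, KO2 and KO3, against 3.53, 3.90 and 2.15 FPKM in WT1, WT2 and WT3, with no overlap. Markers of cortical and basolateral projection neurons were present throughout, with the vesicular glutamate transporter Slc17a7 at 201 to 364 FPKM in KO libraries and 208 to 285 FPKM in WT libraries. WT3 and KO3 stood apart in striatal markers, as set out below.

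Added over the 7 genes, the level was 1.84, 2.15 and 6.64 FPKM in KO1, KO2 and KO3, against 57.8, 36.6 and 5.83 FPKM in WT1, WT2 and WT3. The sums of WT1 and WT2 were far above the rest, while WT3 lay inside the range of the KO libraries. The 7 genes did not all share that pattern. WT1 and WT2 were the 2 highest libraries for 5 of them (Trh, Avp, Gal, Otp and Baiap3), and for the other 2, Oxt and Nkx2-1, they were not. The KO values lay wholly below the WT values for Avp and Nkx2-1, 2 of the 7, where 10.1% of the 13087 genes with a mean of at least 1 FPKM showed that order. The values that chose the genes are the ones counted here, so nothing is read from these counts.

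**Figure D1:**
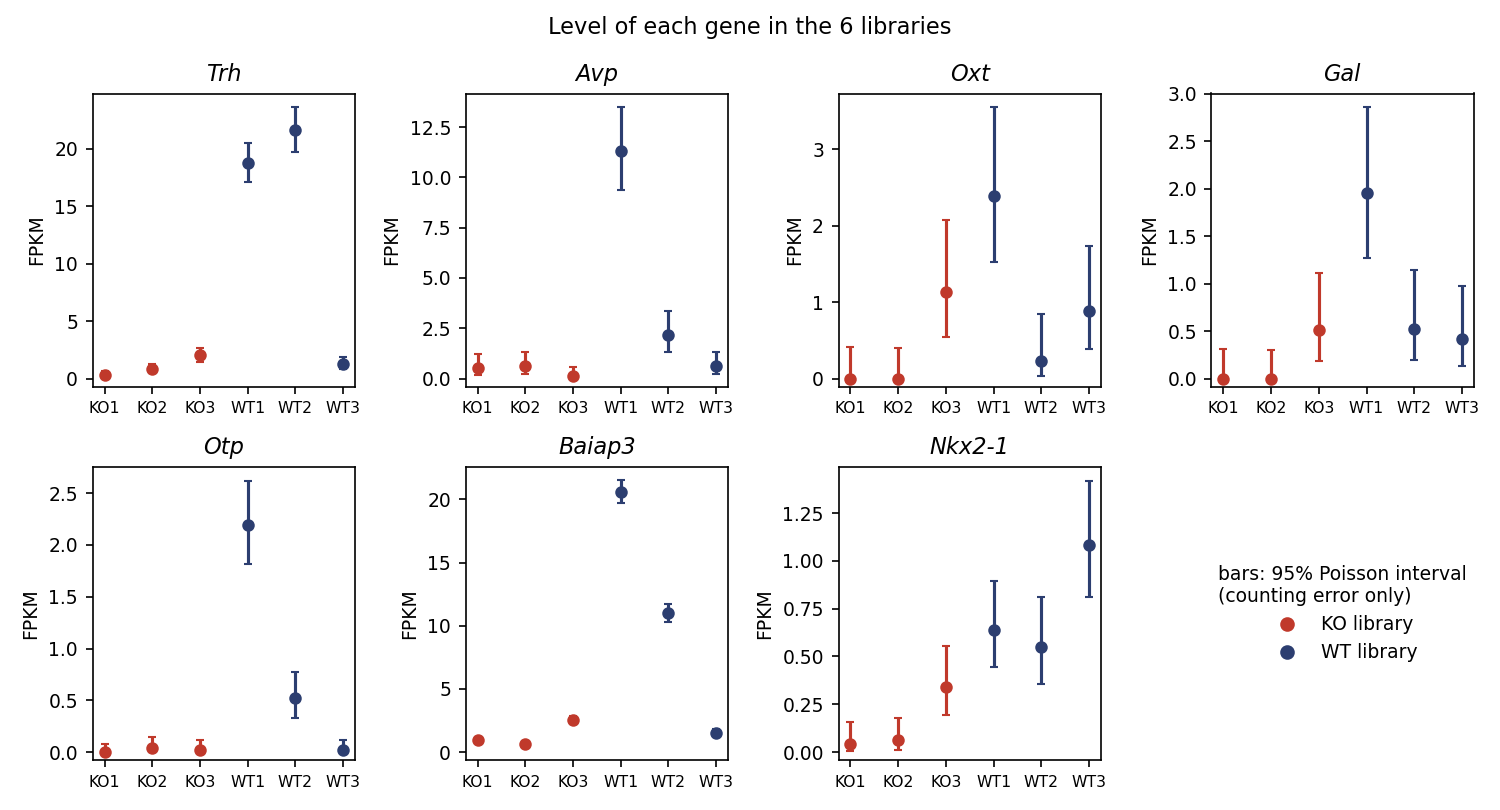
Level in FPKM of each of the 7 genes in every library, with KO libraries in red and WT libraries in blue, and bars for the 95% Poisson interval of the recovered reads (counting error only). Trh and Baiap3 are high in WT1 and WT2, Avp and Otp mainly in WT1, and Nkx2-1 is highest in WT3.

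Trh encodes the precursor of thyrotropin-releasing hormone, which holds several copies of the tripeptide. The gene (ENSMUSG00000005892) lies on chromosome 6 from 92242061 to 92244650 on the minus strand, in the GRCm38 build named in the submitters' processing notes. Trh was at 0.308, 0.792 and 2.02 FPKM in KO1, KO2 and KO3, against 18.7, 21.6 and 1.28 FPKM in WT1, WT2 and WT3. The genotypes overlapped, since KO3 was above WT3. Behind these values stood 7, 19 and 46 reads in the KO libraries and 485, 479 and 30 in the WT libraries. Among protein-coding genes Trh ranked 10200 to 13349 in the KO libraries and 2559, 2263 and 11396 in WT1, WT2 and WT3. On the log2(FPKM + 1) scale the mean KO minus WT difference was -2.39 (SE 0.85 from limma), and it was -0.25 with WT1 and WT2 both left out, that is against WT3 alone.

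Avp encodes the precursor of vasopressin and its carrier neurophysin. The gene (ENSMUSG00000037727) lies on chromosome 2 from 130580620 to 130582554 on the minus strand. Avp was at 0.528, 0.600 and 0.105 FPKM in KO1, KO2 and KO3, against 11.3, 2.16 and 0.616 FPKM in WT1, WT2 and WT3. WT1 alone held 73.8% of the gene's summed FPKM, and WT3 was above KO2 by less than counting error, with 6 reads in each. The 122 reads of WT1 gave a 95% Poisson interval of 9.39 to 13.5 FPKM, clear of the 1.32 to 3.34 FPKM of WT2, which rested on 20 reads. The mean log2 difference was -1.51 (SE 0.67), -0.70 without WT1 and -0.21 with WT1 and WT2 both left out.

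Oxt encodes the matching precursor of oxytocin and its neurophysin, and sits beside Avp on chromosome 2. The gene (ENSMUSG00000027301) runs from 130576173 to 130577054 on the plus strand, 3565 bases from Avp, with the genes facing each other and no other listed gene between them. Oxt was at 0, 0 and 1.13 FPKM in KO1, KO2 and KO3, against 2.39, 0.232 and 0.882 FPKM in WT1, WT2 and WT3. The order differed from that of Avp: WT2 was the lowest WT library, and KO3 was above both WT2 and WT3. Only WT1 had more than 10 reads, 24, with 2 in WT2, 8 in WT3 and 10 in KO3. The zeros of KO1 and KO2 allow up to 0.340 and 0.322 FPKM (3 reads each), and the 95% intervals of WT2, WT3 and KO3 overlapped one another, so their order was not detectable at this depth. Neurophysin sequences of Avp and Oxt are closely related, and the handling of reads that match both is not stated in the labels.

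Gal encodes the precursor of galanin, a peptide of hypothalamic, brainstem and extended amygdala neurons. The gene (ENSMUSG00000024907) lies on chromosome 19 from 3409919 to 3414472 on the minus strand. Gal was at 0, 0 and 0.511 FPKM in KO1, KO2 and KO3, against 1.95, 0.526 and 0.416 FPKM in WT1, WT2 and WT3. WT1 was above the rest, and WT2, WT3 and KO3 lay within counting error of one another, at 6, 5 and 6 reads. The label of a gene high in both WT1 and WT2 therefore does not hold for Gal or for Oxt. Reads were 0 in KO1 and KO2, which allows up to 0.257 and 0.243 FPKM.

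Otp encodes a homeodomain transcription factor that neuroendocrine neurons of the hypothalamus, including those that make vasopressin, oxytocin and thyrotropin-releasing hormone, need in order to develop. The gene (ENSMUSG00000021685) lies on chromosome 13 from 94875602 to 94885130 on the plus strand. Otp was at 0, 0.0400 and 0.0211 FPKM in KO1, KO2 and KO3, against 2.19, 0.520 and 0.0206 FPKM in WT1, WT2 and WT3. These values stood on 0, 2 and 1 reads in the KO libraries and 118, 24 and 1 in the WT libraries, so the signal was present in WT1 and WT2 and at or near 0 in WT3 and in every KO library. WT1 held 78.5% of the summed FPKM, the highest share of the 7 genes. The mean log2 difference of -0.74 was -0.29 without WT1 and -0.00046 with WT1 and WT2 both left out.

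Nkx2-1 encodes a homeodomain factor of the ventral forebrain, which builds the basal hypothalamus and also specifies pallidal neurons, cholinergic neurons and many interneurons. The gene (ENSMUSG00000001496) lies on chromosome 12 from 56531958 to 56536908 on the minus strand. Nkx2-1 was at 0.0428, 0.0609 and 0.342 FPKM in KO1, KO2 and KO3, against 0.640, 0.549 and 1.08 FPKM in WT1, WT2 and WT3. WT3 was the highest library with 52 reads, WT1 and WT2 lay within counting error of each other with 34 and 25, and KO3 was the highest KO library with 16. Nkx2-1 thus did not share the order of the peptide genes, and it was the 1 gene of the 7 whose KO minus WT difference did not shrink when WT1 and WT2 were both left out, at -0.87 against -0.61 with all libraries. An antisense model gene overlaps it, listed at no more than 0.0707 FPKM in any library.

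Baiap3 encodes a C2-domain protein of the Munc13 family that takes part in dense-core vesicle traffic in neuroendocrine cells. The gene (ENSMUSG00000047507) lies on chromosome 17 from 25242659 to 25256364 on the minus strand. Baiap3 was at 0.965, 0.654 and 2.52 FPKM in KO1, KO2 and KO3, against 20.6, 10.98 and 1.53 FPKM in WT1, WT2 and WT3. The 58 to 212 reads of the KO libraries and 132 to 1969 of the WT libraries made it the best measured of the 7 genes. As with Trh, KO3 lay above WT3 and the genotypes overlapped. The mean log2 difference was -1.95 (SE 0.74), and -0.17 with WT1 and WT2 both left out. Tsr3, a ribosome biogenesis gene on the opposite strand, overlaps Baiap3 and was at 9.57 to 13.2 FPKM in KO and 13.0 to 14.2 FPKM in WT. Both genes were highest in WT1. The use of strand in counting is not given, and the part of Tsr3 reads in the Baiap3 values was not tested.

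WT1 and WT2 differed from each other in the make-up of these genes. In deposited FPKM, the ratio of WT1 to WT2 was 0.868 for Trh (95% interval 0.763 to 0.986, exact, counting error only). The Trh reads were 485 in WT1 and 479 in WT2. Baiap3 was higher in WT1 at a ratio of 1.87 (1.73 to 2.03). The deposited FPKM carry a scaling factor that differs between libraries and that these intervals do not cover. The Trh interval ends close to 1, so whether Trh was lower in WT1 than in WT2 was not settled. Such a factor moves the ratios of all 7 genes alike, so their order does not rest on it. The ratio was 5.23 for Avp (3.24 to 8.86), 4.21 for Otp (2.70 to 6.84), 3.71 for Gal (1.49 to 11.03) and 10.3 for Oxt (2.55 to 89.8). Avp and Otp therefore lay above Baiap3, and Baiap3 above Trh, with no overlap between their intervals. Nkx2-1 had a ratio of 1.17 (0.675 to 2.04), not distinguishable from 1. Trh made up 59.1% of the summed level of the 7 genes in WT2 and 32.4% in WT1. Avp made up 5.91% in WT2 and 19.6% in WT1. These ratios compare a pair of libraries and have no replicate check.

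**Figure D2:**
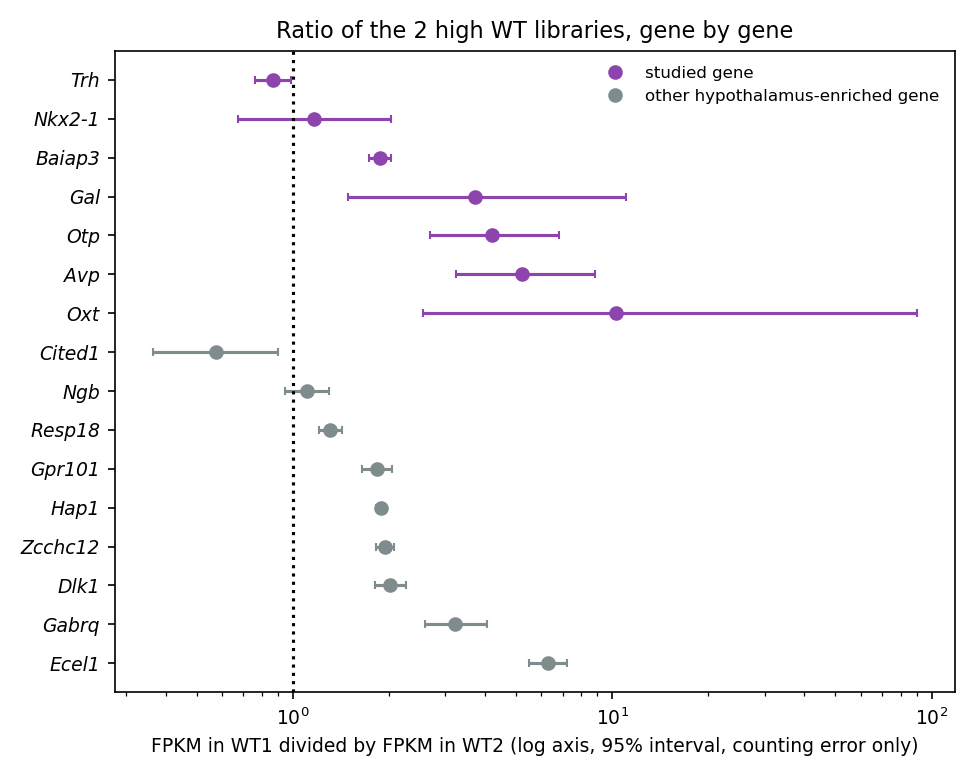
FPKM in WT1 divided by FPKM in WT2 for each of the 7 genes (purple) and for the 9 tested genes of the hypothalamus-enriched list (grey), on a log axis with 95% exact intervals for counting error. Among the 7 genes the ratios run from 0.868 for Trh to 10.3 for Oxt, while Gpr101, Hap1, Zcchc12 and Dlk1 sit between 1.84 and 2.02, near Baiap3.

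Whether other genes of the hypothalamus behaved likewise was read from lists that did not include the 7 genes. For the tests, genes with a mean of at least 1 FPKM over the 6 libraries were fitted on log2(FPKM + 1) with limma, and p-values were adjusted over all 13087 such genes. Of these, 1 (0.00764%) passed an adjusted p of 0.05 for KO against WT, and it belongs to none of the lists here. It was not Cntnap4, the gene knocked out, whose log2 difference was -0.92 (SE 0.18 from limma). A count of 0 passing therefore does not show that a difference is absent. Of the 7 genes, Trh, Avp and Baiap3 reached that mean, and Avp did so only through WT1. The other 4 did not and were not fitted.

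Peptide genes expressed in the forebrain mainly by the hypothalamus were close to absent. None of the 10 listed genes (0 of 10) reached a mean of 1 FPKM, and 8 had fewer than 10 reads in every library. Kiss1, a peptide of reproductive control, was at 0 reads in all 6 libraries. Pmch, the precursor of melanin-concentrating hormone, was at 0.0813, 0.231 and 0 FPKM in the KO libraries and 0 in the WT libraries. Hcrt, the orexin precursor, had 6 reads in WT1, 2 in WT2 and at most 1 elsewhere. Pomc, the gene of highest mean in the list, was at 0.647, 0.306 and 0.322 FPKM in KO1, KO2 and KO3, against 0.771, 0.947 and 1.03 FPKM in WT1, WT2 and WT3. Its KO values all lay below its WT values (10.1% of all tested genes), and WT3 was highest. Agrp and Gnrh1 were highest in KO2. The list summed to 1.09 to 2.25 FPKM in KO and 1.75 to 2.30 FPKM in WT, so its summed level did not follow Trh or Avp. These peptides come from the lateral, arcuate and preoptic hypothalamus, and are named here after their values were seen.

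Transcription factors of hypothalamic identity were mostly low too. Of 22 listed, 3 were tested, 4 had no read in any library, and 0 passed (limma; unadjusted p under 0.05 for 1, higher in KO, against 7.05% of all genes). That gene, Pou3f2, a POU factor of neuroendocrine neurons that also acts in cortical neurons, was at 5.84, 8.12 and 8.40 FPKM in KO1, KO2 and KO3, against 1.66, 3.77 and 5.50 FPKM in WT1, WT2 and WT3 (log2 difference 0.94, SE 0.32, limma adjusted p = 0.303). Its lowest library was WT1, the opposite of Avp and Otp. Arnt2, the dimerisation partner of Sim1, had a log2 difference of 0.33 (SE 0.14, limma adjusted p = 0.350), and Six3 one of -0.95 (SE 0.53, limma adjusted p = 0.433).

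Among the 18 factors with reads, 5 were highest in WT1 and 3 in WT3, and the rest in other libraries. WT1 was the highest library for 24.9% of all tested genes. Only 3 of the 22 listed factors were tested, so that share is not a matched background for these 5 of 18. Of the 5, Sim1, Fezf1 and Lhx9 are named after their values were seen. Sim1, which acts with Otp in the same neurons, had no read in KO libraries and 17, 2 and 1 reads in WT1, WT2 and WT3. Fezf1 was at 0, 0 and 0.0252 FPKM in KO1, KO2 and KO3, against 0.976, 0.259 and 0.0492 FPKM in WT1, WT2 and WT3. Lhx9 was at 0.115, 0.0243 and 0.0320 FPKM in the KO libraries, against 0.760, 0.368 and 0.00624 FPKM in the WT libraries. WT1 and WT2 were the 2 highest libraries for these 3, as for Otp, and the order of the other libraries differed between genes.

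Other genes enriched in hypothalamic neurons were mostly highest in WT1, as Baiap3 was. All 21 listed genes had reads, and WT1 was the highest library for 15 of the 21. That order held for 24.9% of the 13087 tested genes, and no share was computed for genes below a mean of 1 FPKM. Of the 21, 9 reached a mean of 1 FPKM, and of these Dlk1, Gpr101 and Gabrq did so only through WT1 and WT2, with each of the other 4 libraries below 1 FPKM. Counts by direction over the 9 are therefore set in part by the filter, and nothing is read from them. None of the 9 passed (0 by limma and 0 by voom; unadjusted p under 0.05 for 5, lower in KO, where 7.25% of all tested genes were). Not all 21 shared the order: Agtr1a, an angiotensin receptor, was highest in KO2, and Hdc, which makes histamine, in WT3. This list was written with results of these data known, so its counts are a description.

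Hap1, a huntingtin-associated protein abundant in hypothalamic and amygdalar neurons, was at 24.1, 15.6 and 21.0 FPKM in KO1, KO2 and KO3, against 144, 76.2 and 20.6 FPKM in WT1, WT2 and WT3. Its log2 difference was -1.57 (SE 0.62, limma adjusted p = 0.335), and over the alternatives the adjusted p ran from 0.0830 to 0.943. Zcchc12, a zinc-knuckle co-activator, was at 13.9, 10.52 and 17.1 FPKM in the KO libraries and 73.2, 37.6 and 16.7 FPKM in the WT libraries (log2 difference -1.34, SE 0.48, limma adjusted p = 0.318). For both genes WT3 lay within the KO range, as it did for Trh and Baiap3.

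Resp18, a protein of the secretory pathway, was at 35.7, 30.01 and 28.6 FPKM in KO1, KO2 and KO3, against 77.8, 59.2 and 23.6 FPKM in WT1, WT2 and WT3 (log2 difference -0.60, SE 0.39, limma adjusted p = 0.495), and the difference turned to 0.39 with WT1 and WT2 both left out. Ecel1, a membrane peptidase, was at 2.17, 0.478 and 3.09 FPKM in the KO libraries and 26.5, 4.22 and 7.16 FPKM in the WT libraries, with a log2 difference of -1.98 (SE 0.64, limma adjusted p = 0.303). It was the 1 gene of the 9 whose KO values all lay below the WT values (10.1% of all tested genes). Gpr101, an orphan receptor named after its values were seen, was at 0.270, 0.160 and 0.538 FPKM in KO and 10.04, 5.47 and 0.394 FPKM in WT. Its limma adjusted p was 0.325 (log2 difference -1.82, SE 0.68) and 0.0387 without WT3, with a range of 0.0387 to 0.684 over the alternatives. Without WT3, the WT group is WT1 and WT2 alone.

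**Figure D3:**
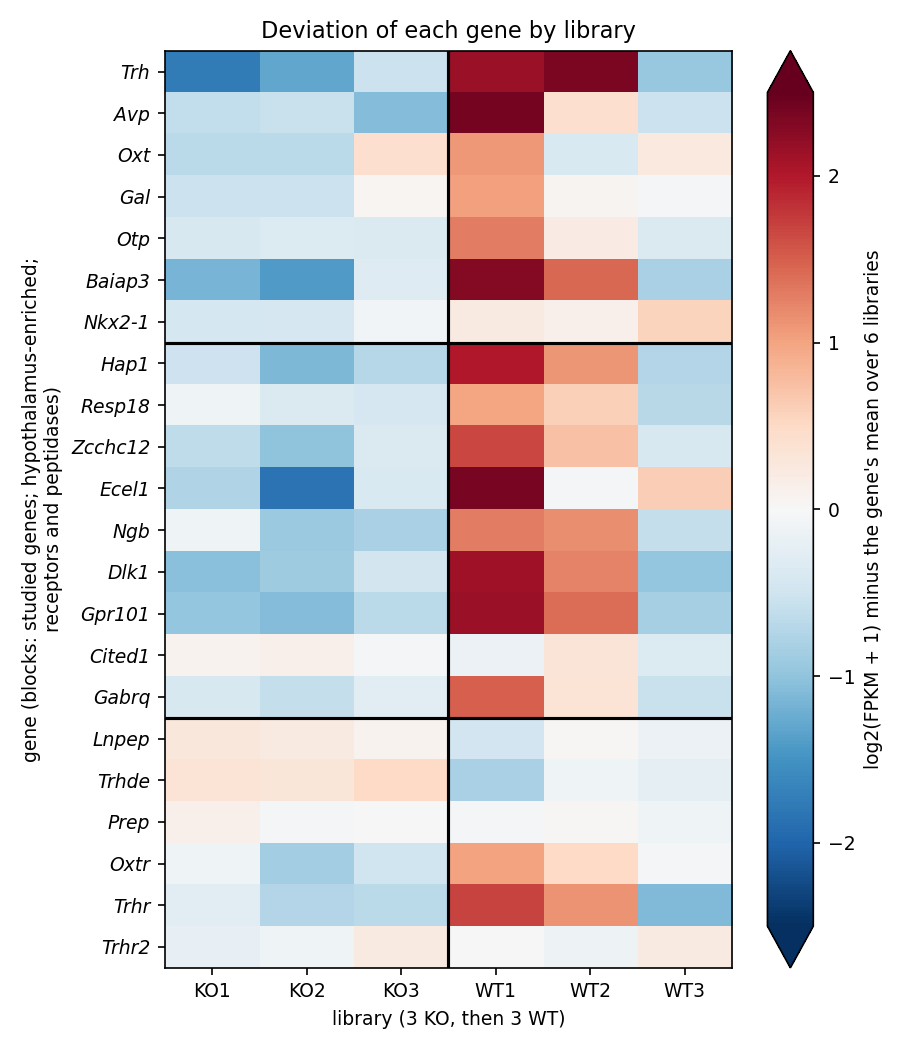
Deviation of log2(FPKM + 1) from each gene's mean over the 6 libraries, KO libraries to the left of WT libraries, for the 7 genes, the 9 tested hypothalamus-enriched genes and the 6 tested receptors and peptidases. Red cells gather in the WT1 and WT2 columns, while Nkx2-1 is highest in WT3 and Trhde is higher in every KO library than in any WT library.

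Receptors of these peptides and the enzymes that break them down were mixed in direction. Of 12 listed, 6 were tested, 3 with a negative and 3 with a positive difference, and 0 passed (limma; unadjusted p under 0.05 for 1 lower and 2 higher in KO, against 7.25% and 7.05% of all genes; 0 by voom). Oxtr, the oxytocin receptor, was at 2.00, 0.770 and 1.27 FPKM in KO1, KO2 and KO3, against 5.47, 3.57 and 2.10 FPKM in WT1, WT2 and WT3, without overlap (log2 difference -0.98, SE 0.30, limma adjusted p = 0.303). Trhr, a receptor of thyrotropin-releasing hormone named after its values were seen, was at 1.02, 0.490 and 0.546 FPKM in the KO libraries and 6.91, 4.35 and 0.148 FPKM in the WT libraries. WT1 and WT2 were the 2 highest libraries for Trhr as for its ligand gene, and WT3 was the lowest of the 6. Trhr reached a mean of 1 FPKM only through WT1 and WT2. Its place among the 3 negative differences was therefore set in part by the filter. Trhr2, the other listed receptor gene of this hormone, did not share that order. It was at 1.59, 1.76 and 2.49 FPKM in KO and 1.99, 1.72 and 2.52 FPKM in WT, highest in WT3 (log2 difference -0.07, SE 0.16).

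Trhde, the ectoenzyme that degrades thyrotropin-releasing hormone, ran the other way from Oxtr and Trhr. It was at 5.87, 5.68 and 6.67 FPKM in KO1, KO2 and KO3, against 2.07, 4.07 and 3.64 FPKM in WT1, WT2 and WT3 (log2 difference 0.76, SE 0.19, limma adjusted p = 0.302). Lnpep, the membrane aminopeptidase that degrades oxytocin and vasopressin, was at 14.5, 13.8 and 12.5 FPKM in KO and 8.09, 11.9 and 10.49 FPKM in WT (log2 difference 0.40, SE 0.14, limma adjusted p = 0.318). Both were lowest in WT1, and for both the KO values all lay above the WT values, an order that 11.9% of all tested genes had. Prep, a cytosolic peptidase, had a log2 difference of 0.07 (SE 0.10). The vasopressin receptors were barely present, with Avpr1b at 0 reads in all libraries and Avpr1a at 1 to 10 reads.

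Enzymes and vesicle proteins that process and store peptides in neuroendocrine cells were of mixed direction. All 17 were tested, 9 with a negative and 8 with a positive difference (median -0.06), and 0 passed (limma; unadjusted p under 0.05 for 1 lower and 1 higher, against 7.25% and 7.05% of all tested genes; 0 by voom). WT1 and WT2 were the 2 highest libraries for 3 of the 17, against 13.2% of all tested genes. Cpe, carboxypeptidase E, was at 871, 776 and 882 FPKM in KO1, KO2 and KO3, against 1037, 912 and 1012 FPKM in WT1, WT2 and WT3. Pcsk1n, the inhibitor of a prohormone convertase, was at 455, 418 and 357 FPKM in KO and 584, 550.0 and 574 FPKM in WT (log2 difference -0.48, SE 0.13, limma adjusted p = 0.302). For Cpe and Pcsk1n, 2 of the 17, the KO values all lay below the WT values (10.1% of all tested genes). For 3 of the 17, Pcsk2, Scg5 and Cadps, they all lay above (11.9% of all tested genes). In Cpe and Pcsk1n, WT3 lay with the other WT libraries, unlike for Trh, Avp or Baiap3. Vgf, a granin-like precursor, and Ptprn, a vesicle membrane protein, had log2 differences of -0.31 (SE 0.32) and -0.27 (SE 0.19).

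Peptide genes that both the amygdala and the hypothalamus express were of mixed order. Of 15 listed, 14 were tested and 0 passed (limma; unadjusted p under 0.05 for 2, both lower in KO, against 7.25% of all tested genes; 0 by voom). Their median log2 difference was -0.0032, and WT1 and WT2 were the 2 highest libraries for 3, against 13.2% of all tested genes. These 3 include Nts, which reached a mean of 1 FPKM only through WT1 and WT2, so the count is set in part by the filter. Sst, somatostatin, was at 210.2, 189 and 219 FPKM in KO1, KO2 and KO3, against 433, 277 and 237 FPKM in WT1, WT2 and WT3 (log2 difference -0.57, SE 0.22, limma adjusted p = 0.331). Penk, the enkephalin precursor, was at 8.76, 12.03 and 98.3 FPKM in KO and 138, 43.4 and 249.5 FPKM in WT (log2 difference -2.31, SE 0.96, limma adjusted p = 0.346), highest in WT3 as Nkx2-1 was. Cck and Npy, had log2 differences of -0.0039 (SE 0.15) and 0.21 (SE 0.18), and both changed sign over the alternatives. Nts, the neurotensin precursor named after its values were seen, was at 0.439, 0.231 and 1.22 FPKM in KO and 9.72, 3.45 and 0.664 FPKM in WT, the order of Baiap3.

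Markers of tissue next to the basolateral amygdala moved with the 7 genes in different libraries, and their part in the levels of the 7 genes was not tested. The medial amygdala and stria terminalis list summed to 22.8 to 27.2 FPKM in KO and 19.6 to 32.6 FPKM in WT. Its mean deviation was highest in WT1 (0.28) and next in WT2 (0.14). WT1 was the highest library for 24.9% of all tested genes. Only 6 of the 11 genes of this list were tested, so that share is not a matched background. WT1 was the highest library for 7 of the 11. Of these, chosen after their values were seen, the bombesin-like receptor Brs3 and the peptide Ucn3 had 0 reads in KO libraries and in WT3, with 45 and 28 reads in WT1 and 5 of each in WT2. The oestrogen receptor Esr1 was at 0.165, 0.224 and 0.191 FPKM in KO1, KO2 and KO3, against 1.55, 0.964 and 0.260 FPKM in WT1, WT2 and WT3. Lhx6, a factor of medial amygdala and interneurons, had a log2 difference of 0.05 (SE 0.12). The central amygdala list summed to 243 to 332 FPKM in KO and 339 to 496 FPKM in WT. In it, 6 of 10 genes were highest in WT1, against 24.9% of all tested genes. Of the 6, Dlk1, Nts and Cyp26b1 reached a mean of 1 FPKM only through WT1 and WT2, so this count is set in part by the filter. The lists also overlap. Dlk1 is in the hypothalamus-enriched list too, and Sst, Tac2 and Nts are among the peptide genes of both amygdala and hypothalamus.

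Other markers had their highest level in WT3, as Nkx2-1 did. Striatal markers summed to 70.7, 49.7 and 282 FPKM in KO1, KO2 and KO3, against 74.1, 73.9 and 671 FPKM in WT1, WT2 and WT3, and all 9 were highest in WT3. KO3 was second in that sum, above WT1 and WT2, whereas for Nkx2-1 it lay below both. Pallidal and cholinergic markers, which descend from Nkx2-1 expressing progenitors in part, summed to 9.12, 8.45 and 15.6 FPKM in KO and 11.3, 9.65 and 22.0 FPKM in WT, with 6 of 9 highest in WT3. The share of all tested genes that were highest in WT3 was not computed, so these counts have no background beside them. Chat, the acetylcholine synthesis enzyme, was at 0.168, 0.0981 and 0.981 FPKM in KO and 0.171, 0.0663 and 2.53 FPKM in WT. Nkx2-1 differed from Chat in WT1 and WT2, where it was above KO1 and KO2 while Chat was level with them.

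The remaining lists covered other neighbouring tissue. Thalamic markers summed to 36.0 to 40.5 FPKM in KO and 29.0 to 54.5 FPKM in WT, and inhibitory and subcortical transmitter genes to 131 to 159 FPKM in KO and 142 to 164 FPKM in WT. Choroid plexus and ependymal markers were highest in WT1 for 8 of 9, where 24.9% of all tested genes were. Only 4 of the 9 were tested, so that share is not a matched background. The summed level of the 9 was 25.4 to 42.9 FPKM in KO and 32.1 to 85.2 FPKM in WT. Anterior pituitary markers summed to no more than 0.839 FPKM in any library, and 2 of the 7, Cga and Fshb, were at 0 throughout. Projection neuron markers summed to 609.5, 507 and 398 FPKM in KO1, KO2 and KO3, against 450.4, 465 and 376 FPKM in WT1, WT2 and WT3, lowest in WT3. Their mean deviation on the log2 scale, which weights genes equally, was 0.31, 0.29 and 0.0042 in the KO libraries, against -0.40, 0.06 and -0.27 in the WT libraries, lowest in WT1. No gene of these neighbouring-tissue lists passed (0 by limma). At an unadjusted p under 0.05, which 7.25% of all tested genes had with a lower and 7.05% with a higher level in KO, 1 of 6 medial amygdala genes tested was lower in KO and 2 were higher, 2 of 10 central amygdala genes were lower, and 1 of 10 projection neuron genes was lower and 4 were higher. The same count was 0 of 8 for striatal and 0 of 3 for pallidal genes, 1 of 6 lower for transmitter genes, 1 of 4 lower for choroid plexus genes and 1 of 6 higher for thalamic genes, and no pituitary gene was tested. Of the genes lower in KO, Cyp26b1 of the central amygdala list reached a mean of 1 FPKM only through WT1 and WT2. Clic6 of the choroid plexus list did so only through WT1.

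**Figure D4:**
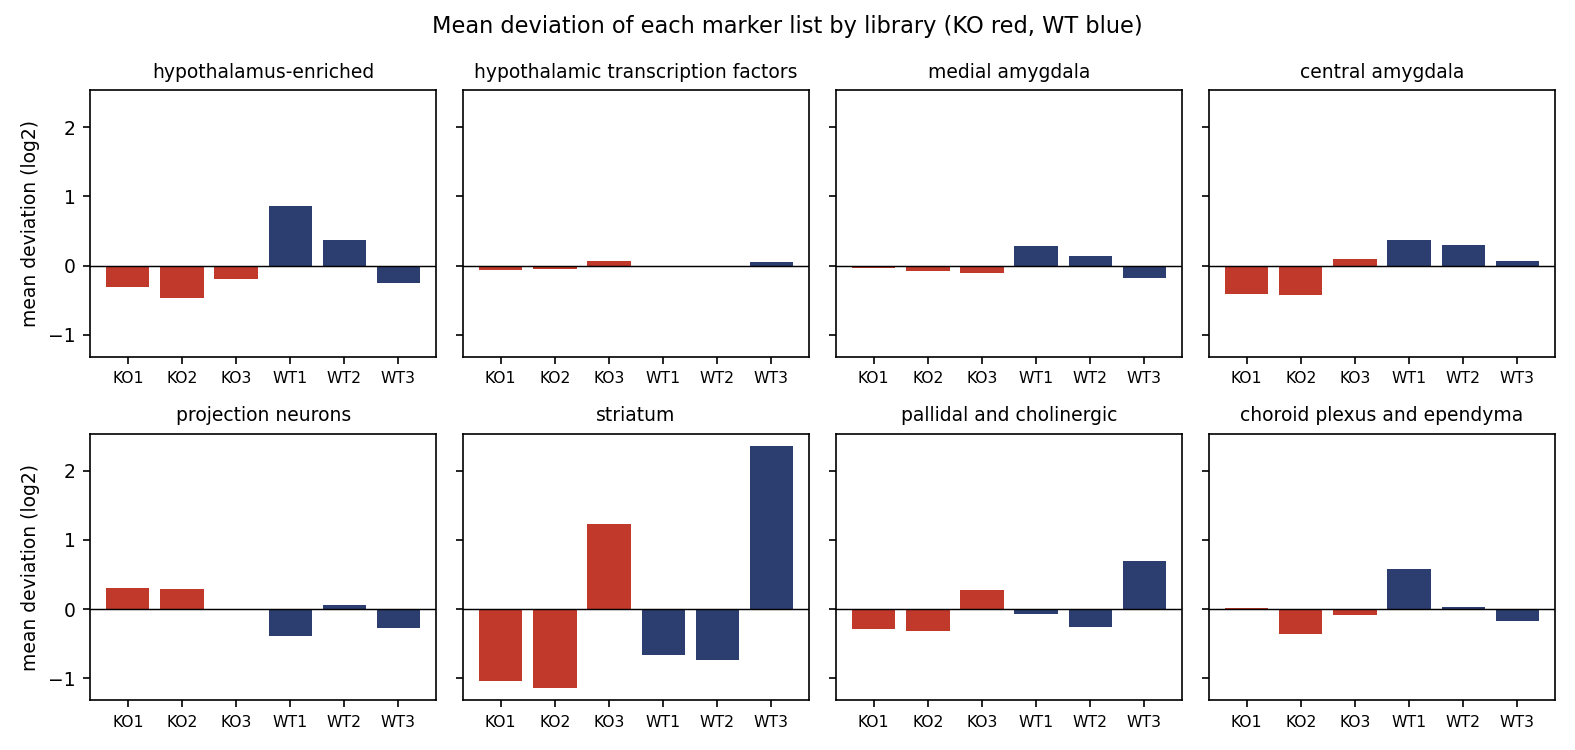
Mean deviation of log2(FPKM + 1) over all genes of each list, by library (KO red, WT blue). The hypothalamus-enriched list is highest in WT1 (0.87) and WT2 (0.36), and the striatal list in WT3 (2.36) and KO3 (1.24).

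Across all tested genes, values in WT1 and WT2 that were each at least 2-fold above every other library, on FPKM + 1, occurred for 25 of 13087 genes (0.191%). Trh and Baiap3 were among the 25, and the remaining 5 of the 7 genes were not. The hypothalamus-enriched list gave 5 of the 25 (Dlk1, Gpr101, Hap1, Ngb and Zcchc12, the first-named pair of which passed the filter only through WT1 and WT2), and Trhr, Nts and Moxd1 of the other lists were there too. Trhr and Nts also passed the filter only through WT1 and WT2. Of those in no list, chosen after their values were seen, Dio3, which inactivates thyroid hormone, Nnat, an imprinted proteolipid gene, and Agt, the angiotensin precursor, were among them. The 2-fold limit was set with these values known.

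The genes with the profile most like the mean standardised profile of the 7 genes were ranked by Pearson r over the 6 libraries, among 1652 tested genes that ranged over at least 1 on the log2 scale. The 12 closest had r of 0.984 to 0.999, and 47 genes had r of at least 0.95. WT1 was the highest library for 5 of the 7 genes that make up the mean profile. Closest was Htr2c, a serotonin receptor, at 2.14, 2.18 and 4.10 FPKM in KO1, KO2 and KO3, against 16.9, 6.51 and 4.68 FPKM in WT1, WT2 and WT3. Among those after it were Trpc7, a cation channel, Cyp26b1, an enzyme that degrades retinoic acid, Arhgap6 and the receptor phosphatase gene Ptpro. Kctd12, Cdk18, Plpp4, Cpne2, Cdh9 and Pcbd1 were also among the 12. Taken singly, Trh and Baiap3 had the same closest gene, Arhgef28 (r = 0.976 and 0.991), at 3.76, 3.75 and 4.36 FPKM in KO and 8.54, 7.27 and 3.85 FPKM in WT.

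The closest gene was Prmt2 for Avp (r = 0.995), Mrap2 for Otp (0.992), Efemp1 for Oxt (0.978), Kctd12 for Gal (0.987) and Adra2c for Nkx2-1 (0.988). Mrap2, an accessory protein of melanocortin receptors, was at 2.64, 2.33 and 2.29 FPKM in KO1, KO2 and KO3, against 8.74, 4.31 and 2.49 FPKM in WT1, WT2 and WT3. Adra2c, an adrenergic receptor, was at 9.21, 8.74 and 11.2 FPKM in KO and 16.8, 14.3 and 23.2 FPKM in WT, highest in WT3 as Nkx2-1 was. With 6 libraries, many genes reach such values of r, and they are given as a description only.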

How the data were processed

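The values are FPKM per gene that the authors deposited for 6 libraries, with gene positions and lengths beside them per the file headers. Per the submitters' processing notes the builds are GRCm38 and mm10; no aligner, read counter, annotation release or strand setting is given in the sources used here. FPKM times gene length, divided by the value of 1 read in that library, came out whole for 100% of values (tolerance 0.01 reads), and these reads were used for counting error; the steps imply library sizes 0.964 to 1.05 times the summed reads, so the deposited FPKM carry a scaling factor.

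Differences between KO and WT were fitted in limma 3.58.1 (R 4.3.3; moderated by empirical Bayes with trend, two-sided p, Benjamini-Hochberg over all tested genes) on log2(FPKM + 1), for genes with a mean of at least 1 FPKM; such differences understate changes of low genes. Count models planned on recovered reads were replaced by voom, because the deposited unit is FPKM. Poisson and ratio intervals (95%, exact, scipy 1.17.1) cover counting error only.

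The 7 genes and the 15 lists were chosen with earlier results of these data known. Named genes were the 7, the 4 tested genes of highest mean FPKM in the first 6 lists, and the 12 of closest profile plus the closest to each gene; others are said to be chosen after their values were seen. Not every gene that the rule names is reported here. Deviations from group means correlated at 0.175, 0.145 and 0.330 between libraries of the same number (KO1 with WT1, KO2 with WT2, KO3 with WT3), and at 0.283 between KO1 and WT2; every same-number pair was above 0.1, so the numbers were treated as pairs in a fit with a replicate block. No sequence is printed.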

Additional observations from a re-analysis of the deposited data

How the results depend on the processing

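The count of genes passing for KO against WT was 1 with limma. It was 0 with no filter on low values (unadjusted p under 0.05 for 2487), with quantile normalization (1940), with no variance trend (1826), with the replicate block (2327) and with WT1 and WT2 both left out (1649). With 1 library left out it was 0 to 9, the 9 being without WT3 and each other library giving 0 (unadjusted 881 to 1973). The hypothalamus-enriched list had 0 genes called, and 0 to 1 with 1 library left out, the 1 being Gpr101 without WT3; the other lists had 0 under every alternative run, the replicate block included. The median log2 difference of the 7 genes was -0.74. It was -2.25 with a pseudocount of 0.1, -2.76 with voom on recovered reads and -0.25 with WT1 and WT2 both left out, and between -1.11 and -0.66 with 1 library left out. No gene of the 7 changed sign under any alternative run. Without WT1 the difference was -1.90 for Trh, -1.29 for Baiap3, -0.36 for Gal and -0.24 for Oxt, and without WT3 it was -3.46 for Trh and -2.84 for Baiap3. The replicate block left the differences of the 7 genes as they were, since the design is balanced, with a median of -0.74. The alternatives voom, WT1 and WT2 both left out, and WT3 and KO3 both left out were chosen after seeing the data; the last gave 1 gene called and differences of -3.79 for Trh and -3.16 for Baiap3. The edgeR and DESeq2 alternatives were not run. With WT1 and WT2 left out, WT3 is assumed to vary like the KO libraries. Depth limits Oxt, Gal and, outside WT1 and WT2, Avp and Otp, with 10 reads or fewer in most libraries.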
